A study of Mus musculus with 12 samples.

Results

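The transcription factors that set and hold hepatocyte identity were followed across 12 male livers, in tissue free of tumour, of the mouse strains LiKM and LiK. The set was chosen by gene symbol and holds 9 genes: Hnf4a, Foxa1, Foxa2, Foxa3, Cebpa, Cebpb, Prox1, Nr1i2 and Nr1i3. All 9 of 9 were found among the 24421 genes of the count table, and all 9 had enough counts to be among the 13880 genes tested. The groups were LiKM mice on ACR, LiKM mice on a normal diet, LiK mice on ACR and LiK mice on a normal diet, with 3 mice in each. ACR stands for acyclic retinoid, a vitamin A analogue tested in liver cancer prevention, and was given in the diet at 0.06% from the age of 5 weeks, and all mice were killed at 4 months. The labels give no alleles; as far as the study is known, Cre recombinase under the albumin promoter acts in hepatocytes of both strains. In these cells, the LiKM strain is meant to be without Mdm2, whose product marks p53 for degradation. No wild-type group was analysed here, so every comparison is between engineered livers.

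HNF4A is a nuclear receptor that sits on the regulatory regions of a large share of hepatocyte genes and keeps the epithelial hepatocyte programme running. The FOXA proteins are pioneer factors: they bind their sites in closed chromatin and open it for others. C/EBP alpha drives the genes of gluconeogenesis, glycogen and urea synthesis in resting hepatocytes, while C/EBP beta is the form induced in the acute phase response and in regeneration. PROX1 is a homeobox factor needed for hepatocytes to form in the embryo, and it is also the master factor of lymphatic endothelium. PXR, the product of Nr1i2, and CAR, the product of Nr1i3, are receptors for drugs and bile acids that switch on detoxifying enzymes and transporters.

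Promoters are shown for Cebpa, the factor that passed the test in a comparison, and for Hnf4a, the most abundant. Both sequences are RefSeq promoters of build GRCm38.p6, which is mm10, on the + strand, and run from 250 bases before a transcript's start to 50 bases after it. The Cebpa promoter lies at chr7:35119043-35119342, and the capitals mark a TATA box (TATAAA), 30 bases before the start. The Hnf4a promoter shown is the downstream one of a pair, at chr2:163546905-163547204, and the capitals mark adjacent matches to the reverse of the HNF1 motif GTTAAT.
Cebpa: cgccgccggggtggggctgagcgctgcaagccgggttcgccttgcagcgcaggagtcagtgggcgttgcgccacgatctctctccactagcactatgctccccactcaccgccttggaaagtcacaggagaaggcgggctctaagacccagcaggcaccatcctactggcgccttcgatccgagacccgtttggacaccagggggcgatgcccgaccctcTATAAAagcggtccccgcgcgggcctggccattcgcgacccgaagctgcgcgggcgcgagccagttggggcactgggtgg
Hnf4a: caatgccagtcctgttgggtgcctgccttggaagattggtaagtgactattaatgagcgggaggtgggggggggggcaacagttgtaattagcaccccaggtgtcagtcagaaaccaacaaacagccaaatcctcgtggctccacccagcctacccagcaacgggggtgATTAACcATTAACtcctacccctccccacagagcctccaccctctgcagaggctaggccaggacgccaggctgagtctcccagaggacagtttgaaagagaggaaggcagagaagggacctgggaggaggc
Each motif was searched on both strands. TATAAA is held by 13.6% of the 32851 RefSeq promoters of this length, and GTTAAT by 7.1%. Among the 13 promoters of the 9 factors, 5 held TATAAA, in Foxa2, Foxa3, Cebpa, Cebpb and Prox1, and 2 held GTTAAT, in Hnf4a and Foxa2. The C/EBP motif TTGCNNAA was in 0 of the 13, against 10.8% of all promoters. These matches only describe the letters. Counts per gene do not separate transcripts of the Hnf4a promoters.

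Libraries held 10124813 to 18647156 counts, and the factor that scales them (TMM) ran from 0.83 to 1.243. The labels name each library as a mouse of its own, so errors include the spread between animals. Hepatocyte markers were present in all 12 livers, with a summed level of 177579 to 211013 CPM (counts scaled to a common library size) in LiKM on ACR and 126927 to 144623 in LiKM on the normal diet. The same sum was 199778 to 210326 CPM in LiK on ACR and 160445 to 217012 in LiK on the normal diet. Alb alone made up most of it in LiKM, with a mean of 109220 of 190094 CPM on ACR. On the normal diet Alb had a mean of 71623 of 138050 CPM in LiKM. Mdm2 was not lower in the libraries labelled LiKM, with 29.0 to 67.2 CPM over their 6 livers against 21.6 to 25.8 CPM in the 6 LiK livers. It rose in LiKM on ACR (log2 1.12, edgeR adjusted p = 0.0101), while on the normal diet it had 0.37 (edgeR adjusted p = 0.222). Counts over all its exons are no check of a deletion that takes some of them, and Mdm2 is itself switched on by p53. Genes of the circadian clock set several libraries apart, and their values stand beside Cebpa below. In liver tissue, fewer cells that express a factor and less RNA per cell cannot be told apart.

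Per length of exon, Hnf4a was the highest of the 9 with a mean of 116 RPKM (CPM per kilobase of exon) over 12 livers, and Cebpa followed with 101 RPKM. A gap then separated Nr1i2 (27.2 RPKM), Cebpb (24.7) and Foxa3 (24.5), whose ranges over the livers overlapped. Nr1i3 (12.96), Foxa2 (11.4), Prox1 (8.60) and Foxa1 (8.40 RPKM) formed the lowest tier, and their ranges overlapped as well. Hnf4a was also the steadiest. Its pooled SD within groups was 0.197 on the log2 CPM scale, against 0.323 for Cebpa, 0.544 for Foxa2 and 0.679 for Nr1i3. In 8 of the 12 livers Hnf4a stood first per length and Cebpa second. In the other 4 livers Cebpa stood first, and these were all 3 LiK mice on ACR and LiKM normal diet mouse 3.

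**Figure D1:**
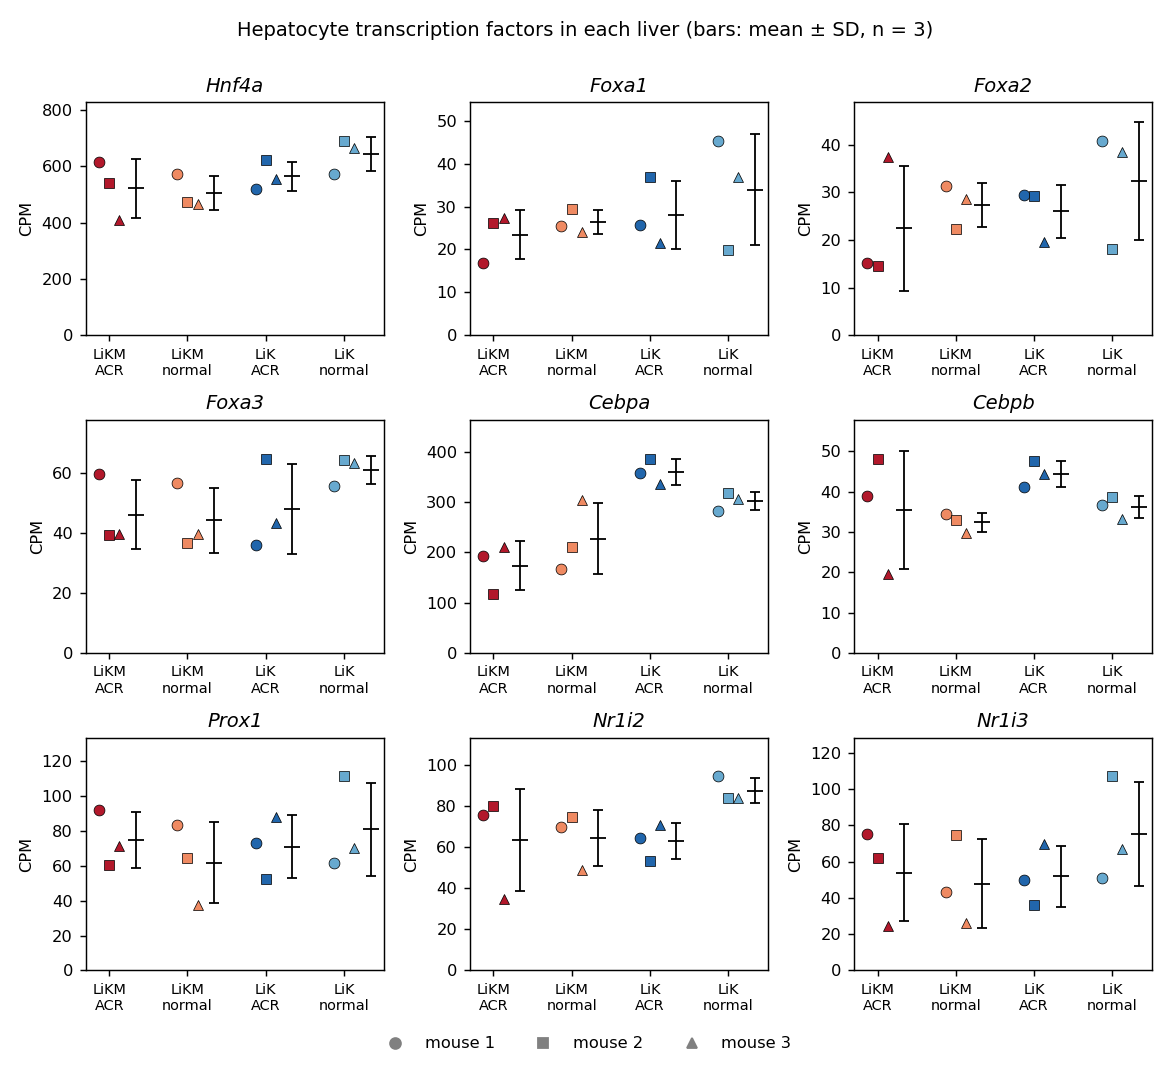
CPM of each of the 9 factors (one panel each, y axis from 0) in every liver, with LiKM on ACR, LiKM on the normal diet, LiK on ACR and LiK on the normal diet along the x axis. Points are single mice and bars are the mean ± SD (n = 3); Cebpa is the panel in which all 3 LiKM livers on ACR (117 to 210.5 CPM) lie below all 3 LiK livers on ACR (335 to 386 CPM).

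Of the 9 factors, 1 differed between the strains past the threshold of an adjusted p of 0.05, and 0 differed between the diets. Cebpa fell in LiKM livers on ACR to 173 ± 49.2 CPM, against 359 ± 25.4 CPM in LiK livers on ACR (mean ± SD, n = 3 each, as for all group levels). The other 8 factors did not pass on that diet, and among all genes 9.79% passed there, 5.55% higher and 4.24% lower in LiKM. On the normal diet 0 of 9 passed by edgeR, 0 at an unadjusted p under 0.05 and 0 by DESeq2, in a comparison in which 21.8% of all genes passed, 13.2% higher and 8.61% lower in LiKM. ACR against the normal diet gave 0 of 9 in LiKM, where 0% of all genes passed, and 0 of 9 in LiK, where 0.195% passed, 0.13% higher and 0.0648% lower on ACR. In both strains the count for diet was also 0 at an unadjusted p under 0.05 and 0 by DESeq2. The difference of the diet effects between the strains was past the threshold for 0 of 9 factors by edgeR, 0 unadjusted and 0 by DESeq2, and for 0.0072% of all genes.

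**Figure D2:**
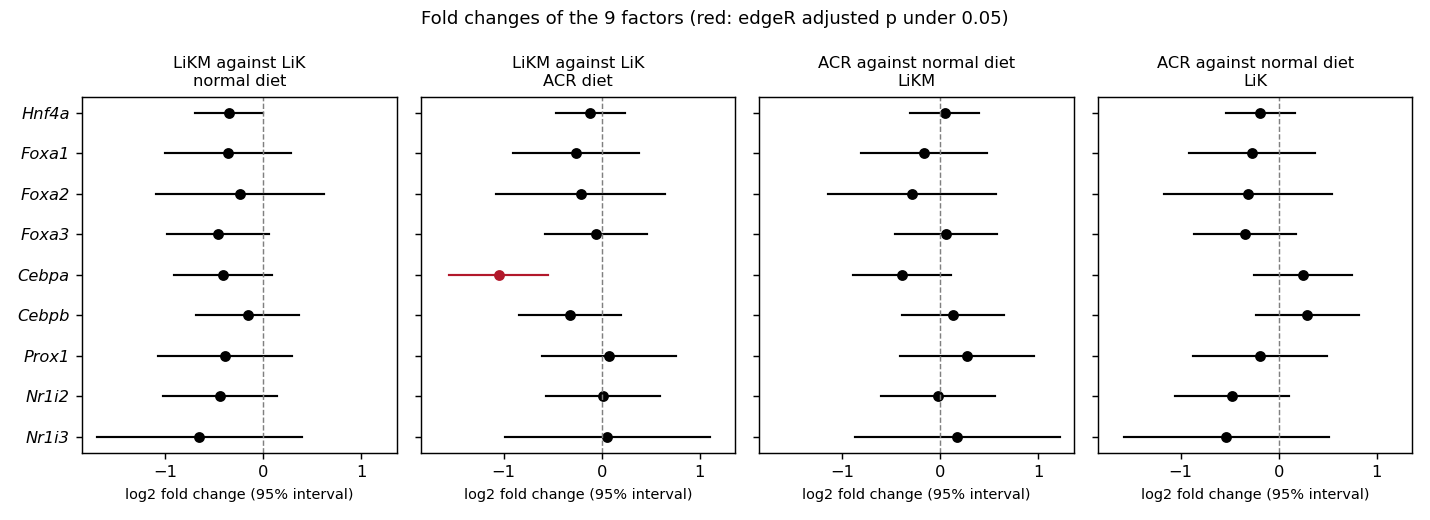
Log2 fold change of each factor (x axis) with its 95% interval in the 4 comparisons, LiKM against LiK on each diet and ACR against the normal diet in each strain. Only Cebpa in LiKM against LiK on ACR (log2 -1.05, red) passed the threshold, and on the normal diet all 9 points lie below 0 with TMM scaling.

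On the normal diet the 9 fold changes of LiKM against LiK all lay below 0, from -0.65 for Nr1i3 to -0.16 for Cebpb on the log2 scale, with a median of -0.39. The median over all genes was 0.02. That direction depends on the scaling. With library size alone in place of TMM, 5 of the 9 lay below 0 and Hnf4a, Foxa1, Foxa2 and Cebpb above it. The median of the 9 was then -0.01, while that of all genes was 0.40, and 97.6% of the genes called were higher in LiKM, against 60.6% with TMM. On ACR 6 of the 9 lay below 0 and 3 above, with a median of -0.12 against 0.02 for all genes. There the share of calls that were higher in LiKM was 77.9% with library size alone and 56.7% with TMM.

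Hnf4a (chromosome 2, 163506808 to 163572910, protein coding) stood at 615, 541 and 409 CPM in LiKM livers on ACR, against 519.6, 621 and 554 CPM in LiK livers on ACR. Without ACR, Hnf4a had 575, 474 and 467 CPM in LiKM livers, against 574, 689.8 and 667 CPM in LiK livers. The groups overlapped on both diets, on the normal diet only because LiKM mouse 1 lay level with LiK mouse 1. The log2 fold change of LiKM against LiK was -0.35 on the normal diet (95% interval -0.70 to 0.00, edgeR adjusted p = 0.141) and -0.12 on ACR (-0.47 to 0.23, adjusted p = 0.683). ACR against the normal diet gave 0.05 in LiKM (-0.30 to 0.40) and -0.19 in LiK (-0.54 to 0.16), with edgeR adjusted p = 0.992 and 0.621. These intervals were the narrowest of the 9 factors, and each of them excluded a 2-fold difference, log2 1 in either direction.

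For the FOXA pioneers the groups overlapped on both diets. Foxa1 (chromosome 12, 57540628 to 57546916) had 16.9, 26.2 and 27.3 CPM in LiKM livers on ACR, against 25.7, 37.0 and 21.5 CPM in LiK livers on ACR. Normal diet levels of Foxa1 were 25.4, 29.4 and 24.1 CPM in LiKM livers, against 45.2, 19.8 and 36.8 CPM in LiK livers. The highest and nearly the lowest Foxa1 of all 12 livers stood side by side in LiK on the normal diet, in mice 1 and 2, and the groups overlapped in every comparison. Foxa2 (chromosome 2, 148042877 to 148046969) had 15.2, 14.6 and 37.5 CPM in LiKM livers on ACR, against 29.4, 29.2 and 19.6 CPM in LiK livers on ACR. Normal diet levels of Foxa2 were 31.4, 22.3 and 28.6 CPM in LiKM livers, against 40.8, 18.1 and 38.4 CPM in LiK livers. LiKM ACR mouse 3 stood above every LiK liver on ACR, and its group mates below. Foxa3 (chromosome 7, 19013284 to 19023538) had 59.6, 39.4 and 39.6 CPM in LiKM livers on ACR, against 35.9, 64.9 and 43.4 CPM in LiK livers on ACR. Normal diet levels of Foxa3 were 56.8, 36.6 and 39.6 CPM in LiKM livers, against 55.7, 64.3 and 63.3 CPM in LiK livers, an overlap by LiKM mouse 1 alone.

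None of the 12 FOXA comparisons of strain or diet passed edgeR's test. Between the strains on the normal diet the log2 fold changes were -0.36 for Foxa1, -0.24 for Foxa2 and -0.46 for Foxa3, with 95% intervals of -1.01 to 0.28, -1.09 to 0.62 and -0.98 to 0.06. On ACR they were -0.26, -0.21 and -0.06, in the same order of genes. For diet they were -0.17, -0.29 and 0.06 in LiKM and -0.27, -0.31 and -0.35 in LiK. The Foxa2 intervals, up to 0.65 upward and down to -1.17, leave room for a 2-fold decrease in every one of these comparisons. Bile duct cells also express Foxa1 and Foxa2, and of 16 biliary and progenitor markers tested 16 rose in LiKM on the normal diet and 14 on ACR (5 without the 3 LiKM livers whose clock genes stood apart, named below, which leaves 1 LiKM liver on ACR). The rises on the normal diet and on ACR are 100% and 87.5% of the 16 tested, against 13.2% and 5.55% of all genes. The 17 biliary and progenitor markers in the table summed to 377 to 585 CPM in LiKM on ACR and 694 to 1137 without it. In LiK they summed to 55.4 to 216 CPM on ACR and 58.0 to 73.0 CPM on the normal diet. Spp1 made up most of the sum in LiKM, with a mean of 368 of 461 CPM on ACR and 703 of 899 CPM on the normal diet. What part bile duct cells have in the Foxa1 and Foxa2 levels was not tested.

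Cebpa (chromosome 7, 35119293 to 35121928) was the exception. It had 192, 117 and 210.5 CPM in LiKM livers on ACR, against 357, 386 and 335 CPM in LiK livers on ACR. All 3 LiKM livers lay below all 3 LiK livers, as was the case for 16% of all genes, while 33.3% separated in either direction. The log2 fold change was -1.05 (SE 0.23, 95% interval -1.56 to -0.55), a level 2.07-fold lower in LiKM, with edgeR adjusted p = 0.0186 and DESeq2 adjusted p = 0.000355. Without ACR, Cebpa had 166, 211 and 305 CPM in LiKM livers, against 283, 318 and 305 CPM in LiK livers. Here LiKM mouse 3 lay among the LiK mice and the other LiKM mice below them, and the log2 fold change was -0.41 (SE 0.23, edgeR adjusted p = 0.22). Without LiKM normal diet mouse 3 it was -0.70 and passed (edgeR adjusted p = 0.0465). ACR went with opposite signs in the strains, log2 -0.39 in LiKM with overlapping livers and 0.25 in LiK with all 3 ACR livers above, neither past the threshold (edgeR adjusted p = 0.818 and 0.646). The difference of these diet effects was -0.64 (SE 0.32, edgeR adjusted p = 0.478), so the strain difference on ACR was not shown to be larger than on the normal diet.

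The call for Cebpa on ACR held in 18 of 22 alternative analyses. These include leaving out each of the 12 libraries in turn, also those of the diet that is no part of a comparison. The tally thus counts fits that could change a call little. The call was lost with library size alone as scaling (log2 -0.92, edgeR adjusted p = 0.0548), without LiK ACR mouse 1 (-1.06, 0.0516) and without LiK ACR mouse 2 (-1.001, 0.0732). It was also lost with a component of 15 clock genes as a covariate (-0.92, adjusted p = 0.581), a fit in which 0 of all genes passed. The fold change stayed between -1.22 and -0.84 in all 22. Without LiKM normal diet mouse 3 and LiKM ACR mice 2 and 3, whose clock genes stood apart, it was -0.91. That fit, counted among the 18, has 1 LiKM liver on ACR, mouse 1. This liver is assumed to vary like the other groups, so the fit gives the value of 1 mouse. Nor does it remove the clock difference on ACR. Mouse 1 had 15.4 CPM of the clock gene Dbp, against 136 to 139 CPM in LiK livers on ACR. Of the clock gene Arntl it had 5.66 CPM, against 0.721 to 1.73 CPM.

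**Figure D3:**
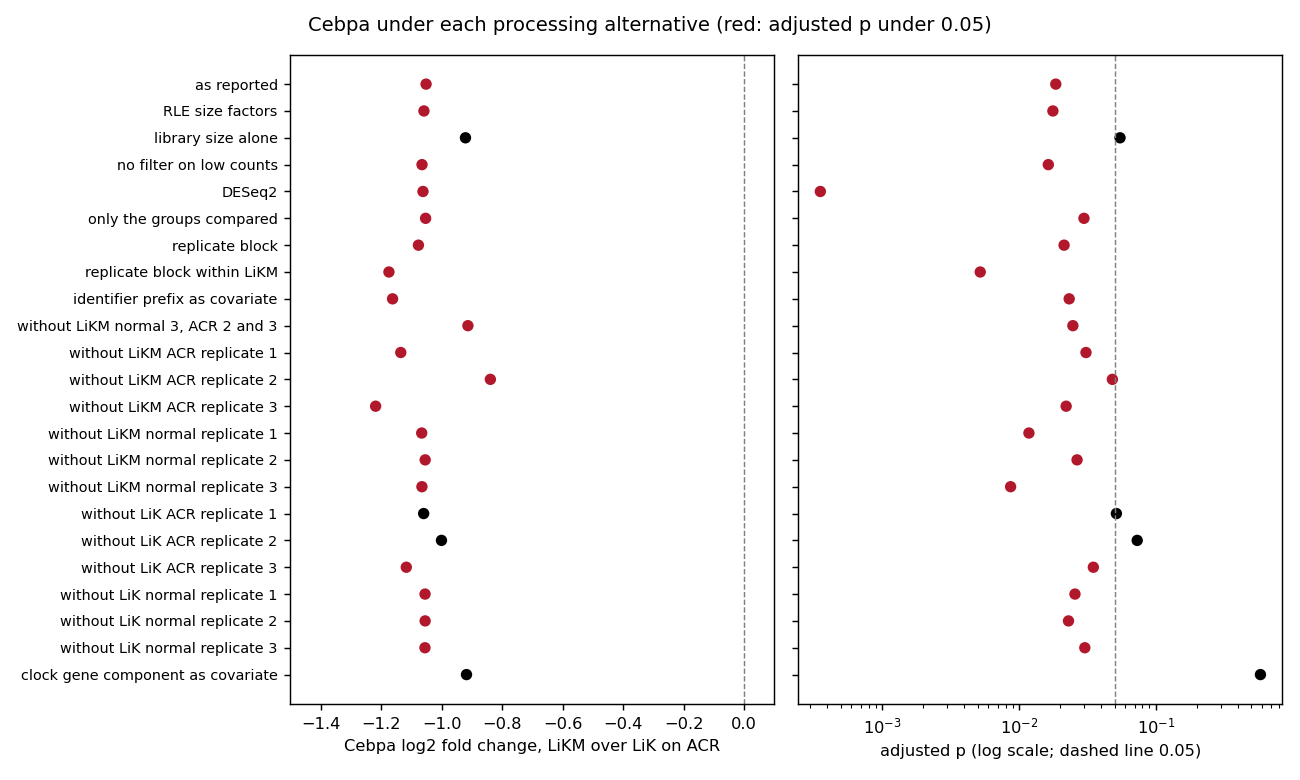
Cebpa in LiKM against LiK on ACR under the reported analysis and 22 alternatives (rows). The left panel gives the log2 fold change and the right panel the adjusted p on a log axis with the 0.05 threshold dashed; points past it are red. Fold changes run from -1.22 to -0.84, and 4 alternatives miss the threshold.

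Clock genes moved with Cebpa between the ACR groups. Dbp, a clock output gene, had 15.4, 3.25 and 3.54 CPM in LiKM livers on ACR, against 139, 137 and 136 CPM in LiK livers on ACR. Arntl, which encodes the clock activator BMAL1, had 5.66, 30.3 and 29.6 CPM in LiKM livers on ACR, against 0.721, 1.73 and 0.892 CPM in LiK livers on ACR. For both genes the ACR groups did not overlap. Dbp on the normal diet had 8.46, 25.6 and 74.0 CPM in LiKM livers, against 35.9, 25.6 and 31.8 CPM in LiK livers. The liver with the most Cebpa of its group had the most Dbp of its group in LiKM on the normal diet (mouse 3), but not in the other 3 groups. Of the 15 clock genes 2 rose and 4 fell in LiKM on ACR, 40% in all against 9.79% of all genes. On the normal diet 0 passed by edgeR, also 0 at an unadjusted p under 0.05. The labels give no hour of tissue collection. Since the clock state and the strain differ together on ACR, they cannot be told apart there. The LiK diet groups did not overlap in Dbp either. Nor did they in Arntl, which had 5.85, 5.77 and 6.53 CPM in LiK livers on the normal diet. For diet in LiK 0 of the 15 clock genes passed by edgeR, and 7 had an unadjusted p under 0.05. Clock state and diet thus cannot be told apart in LiK.

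The ratio of Cebpa to Hnf4a in CPM does not depend on the scaling of libraries. It was 0.312, 0.217 and 0.515 in LiKM livers on ACR, against 0.687, 0.621 and 0.604 in LiK livers on ACR. The ACR groups did not overlap. The ratio on the normal diet was 0.289, 0.445 and 0.653 in LiKM livers, against 0.493, 0.461 and 0.458 in LiK livers, and LiKM mouse 3 stood above all LiK mice. Over the 12 livers, the genes whose profile lay nearest to that of Cebpa were Gch1, the first enzyme of tetrahydrobiopterin synthesis, and Tprkb, a subunit of the KEOPS complex for transfer RNA modification. Their mean absolute difference from Cebpa, on the log2 CPM scale after centring each gene, was 0.123 and 0.135, against a median of 0.433 over 9371 genes.

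Cebpb (chromosome 2, 167688915 to 167690418), the inducible form, passed in none of the comparisons. It had 38.9, 48.1 and 19.5 CPM in LiKM livers on ACR, against 41.1, 47.6 and 44.2 CPM in LiK livers on ACR. Cebpb on the normal diet had 34.5, 32.9 and 29.8 CPM in LiKM livers, against 36.6, 38.6 and 33.2 CPM in LiK livers. LiKM on ACR held both the highest and the lowest Cebpb of all 12 livers, in mice 2 and 3. Between the strains the log2 fold change was -0.16 on the normal diet (95% interval -0.68 to 0.37) and -0.32 on ACR (-0.84 to 0.20). In LiK the 3 livers on ACR all lay above the 3 on the normal diet, with a log2 fold change of 0.29 that did not pass (edgeR adjusted p = 0.602). Some 312 of its 1504 exon bases are shared with Tmem189 on the opposite strand, whose counts were lower than those of Cebpb in every liver. Of 12 markers of macrophages, which also express Cebpb, 3 rose in LiKM on the normal diet and 4 on ACR. These rises are 25% and 33.3% of the 12. Among all genes 13.2% and 5.55% passed higher, 21.8% and 9.79% either way. The 12 markers summed to 567 to 601 CPM in LiKM on ACR and 277 to 484 CPM on the normal diet. In LiK they summed to 249.6 to 482 CPM on ACR and 176 to 364 CPM on the normal diet. The part of macrophages in the Cebpb level was not tested.

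Prox1 (chromosome 1, 190118035 to 190170714) had 92.2, 60.7 and 71.4 CPM in LiKM livers on ACR, against 72.8, 52.3 and 88.0 CPM in LiK livers on ACR. Prox1 on the normal diet had 83.6, 64.3 and 37.6 CPM in LiKM livers, against 61.5, 111 and 70.3 CPM in LiK livers. The groups overlapped in every comparison. The log2 fold change of LiKM against LiK was -0.39 on the normal diet (95% interval -1.08 to 0.30, edgeR adjusted p = 0.40) and 0.07 on ACR (-0.61 to 0.76, adjusted p = 0.906). For diet it was 0.27 in LiKM and -0.19 in LiK. Of 4 lymphatic endothelial markers 2 rose in LiKM without ACR and 1 with it, 50% and 25%, against 13.2% and 5.55% of all genes. The 5 such markers in the table summed to 40.9 to 58.4 CPM in LiKM on ACR and 58.7 to 74.6 CPM on the normal diet. In LiK they summed to 39.2 to 54.2 CPM on ACR and 28.1 to 38.1 CPM on the normal diet. Flt4 (mean 34.5 CPM) and Lyve1 (15.2 CPM) made up most of the mean sum of 51.2 CPM in LiKM on ACR. The part of lymphatic vessels in the Prox1 level was not tested.

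Among the xenobiotic receptors, Nr1i2 (chromosome 16, 38248323 to 38294824) was highest in LiK livers on the normal diet. It had 75.6, 79.9 and 34.7 CPM in LiKM livers on ACR, against 64.5, 53.4 and 70.8 CPM in LiK livers on ACR. Nr1i2 on the normal diet had 69.5, 74.8 and 49.0 CPM in LiKM livers, against 94.4, 84.0 and 84.0 CPM in LiK livers. Every LiK liver on the normal diet stood above all 9 livers of the other groups. Nr1i2 was the 1 factor of 9 whose strains did not overlap on the normal diet, all LiKM livers being lower, as for 19.4% of all genes, with 20.7% all higher and 40.1% either way. In LiK it was 1 of 3 factors whose diet groups did not overlap, with Cebpa and Cebpb, against 28.1% of all genes, 13.4% with ACR all above and 14.6% all below. In LiKM 0 of 9 factors separated by diet, against 10.6% of all genes, 3.94% above and 6.7% below. Neither difference passed, with log2 -0.44 for strain on the normal diet (95% interval -1.02 to 0.14, edgeR adjusted p = 0.258) and -0.48 for ACR in LiK (-1.06 to 0.11, adjusted p = 0.445). Strain on the normal diet passed with the prefix of the mouse identifiers as a covariate (-0.90, edgeR adjusted p = 0.0339). The prefix is MP in LiK normal diet mice 2 and 3 and in LiKM ACR mouse 3, and KM in all other mice. Prefix and group thus overlap in part and cannot be fully told apart. Diet in LiK passed when only the groups compared were fitted (-0.47, edgeR adjusted p = 0.047) and without the 3 LiKM livers whose clock genes stood apart (-0.48, adjusted p = 0.048). On ACR the strains had a log2 fold change of 0.01, and ACR in LiKM gave -0.02.

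Nr1i3 (chromosome 1, 171213970 to 171220701) was the most variable of the 9 and the least certain. It had 75.4, 62.2 and 24.3 CPM in LiKM livers on ACR, against 49.9, 36.2 and 69.7 CPM in LiK livers on ACR. Nr1i3 on the normal diet had 43.1, 74.5 and 25.9 CPM in LiKM livers, against 51.2, 107 and 67.2 CPM in LiK livers. The highest liver had 4.41-fold the level of the lowest, and the groups overlapped in every comparison. The log2 fold changes were -0.65 for strain on the normal diet (95% interval -1.70 to 0.40), 0.05 on ACR, 0.17 for diet in LiKM and -0.53 for diet in LiK, all short of the threshold (edgeR adjusted p = 0.356, 0.958, 0.991 and 0.638).

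Of the 4414 exon bases of Nr1i3, 3304 are shared with Tomm40l, a mitochondrial import gene on the opposite strand. How strand was treated in counting is not stated, and reads of the genes may not have been separated. Tomm40l had 84.4, 84.6 and 38.8 CPM in LiKM livers on ACR, against 65.8, 45.3 and 83.7 CPM in LiK livers on ACR. Tomm40l on the normal diet had 58.7, 82.1 and 32.9 CPM in LiKM livers, against 57.6, 104 and 70.8 CPM in LiK livers. Tomm40l thus shared its highest liver, LiK normal diet mouse 2, with Nr1i3. The ratio of their counts stayed between 0.625 and 1.03, and in 5 of 12 libraries the Nr1i3 count was not a whole number. The Tomm40l log2 fold changes were -0.42 for strain on the normal diet, 0.09 on ACR, 0.26 for diet in LiKM and -0.25 for diet in LiK, with none past the threshold.

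**Figure D4:**
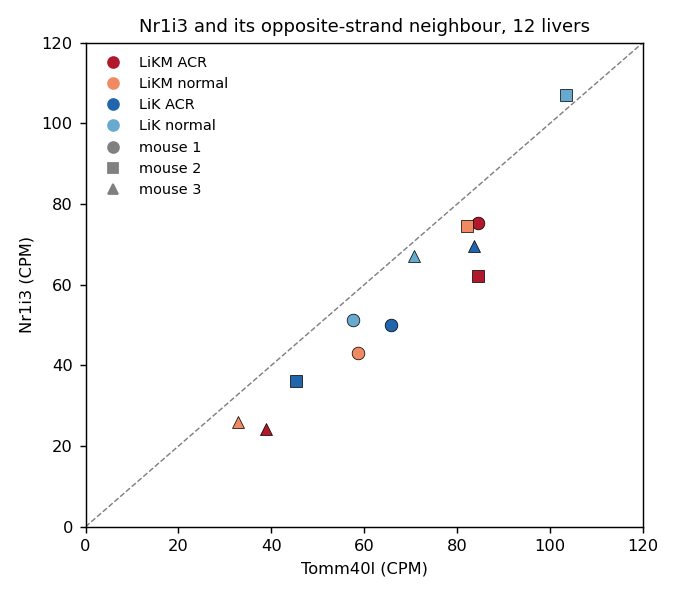
Nr1i3 against Tomm40l in CPM (both axes from 0, dashed line at equal values) in the 12 livers, coloured by group and shaped by mouse number. The points run along the line, from near 24.3 and 38.8 CPM in LiKM ACR mouse 3 to 107 and 104 CPM in LiK normal diet mouse 2.

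Other genes of the hepatocyte programme were set beside the 9 factors. Of 26 further hepatocyte transcription factors 1 rose and 6 fell in LiKM on ACR, and 1 rose and 4 fell on the normal diet. These calls are 26.9% of the 26 on ACR and 19.2% on the normal diet, against 9.79% and 21.8% of all genes. Those that fell are 23.1% and 15.4%, against 4.24% and 8.61% of all genes. Ppara, the receptor for fatty acids that drives their oxidation, had 249.4 ± 23.6 CPM in LiKM and 494 ± 49.0 CPM in LiK on ACR (log2 -0.99, edgeR adjusted p = 0.0034). Rxra, the partner with which PXR, CAR and the retinoid receptors bind DNA, had 336 ± 29.9 CPM in LiKM and 546 ± 23.7 CPM in LiK on ACR (log2 -0.70, edgeR adjusted p = 0.00744). Both passed in 21 of 22 alternatives and were lost with the clock component. Creb3l3, a membrane-bound factor of the fasting response, fell by 0.63 on the log2 scale on ACR (19 of 22), and Onecut2, a developmental factor, fell by 0.87 (16 of 22). Without ACR, Ppara fell by 0.75 and Creb3l3 by 0.59, both in 21 of 22 alternatives, Rxra by 0.47 (18 of 22) and Esrra, an orphan receptor of energy metabolism, by 0.37 (16 of 22). Gata6, a zinc finger factor of endoderm, rose by log2 1.18 on the normal diet in all 22 alternatives and by 0.69 on ACR in 12 of 22. With library size alone, 0 of the 26 fell on the normal diet and 4 on ACR, and with the clock component 0 fell on ACR.

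Nuclear receptors act through coactivators and corepressors. Of 12 such partners 2 fell on ACR, Ppargc1b (log2 -1.26, edgeR adjusted p = 0.00606, 21 of 22 alternatives), a coactivator of oxidative metabolism, and Ncoa2 (-0.40, edgeR adjusted p = 0.0428, 9 of 22). On the normal diet 3 fell, Ncoa2, Ncor1 and Ppargc1b, with edgeR adjusted p between 0.0372 and 0.0497. Ncor1 and Ppargc1b did not pass with same-numbered LiKM mice as a block (edgeR adjusted p = 0.0893 and 0.0563). The 3 partners passed in 13, 2 and 6 of 22 alternatives in that order, and 0 of the 12 fell with library size alone. The calls are 16.7% of the 12 on ACR and 25% on the normal diet, all of them falls. Among all genes 9.79% and 21.8% passed, 4.24% and 8.61% lower in LiKM.

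Of 18 target genes of HNF4A, 7 fell in LiKM on the normal diet and all 18 lay below 0, with a median of -0.51 against 0.02 over all genes. With library size alone 13 of the 18 lay below 0, with a median of -0.12 against 0.40 over all genes. The bile acid carrier Slc10a1 had 502 ± 141 CPM in LiKM and 989 ± 122 CPM in LiK on that diet (log2 -0.98, edgeR adjusted p = 0.00744), and it fell in all 22 alternatives. The organic anion carrier Slco1b2 (-0.85, 20 of 22), the lipid transfer protein Mttp (-0.76, 19 of 22) and the urea cycle enzyme Otc (-0.60, 20 of 22) fell as well. With that scaling 1 of the 18 fell on the normal diet, and with only the groups compared 2. On ACR 2 of 18 fell, Slco1b2 (-0.93) and Slc10a1 (-0.87), each in 16 of 22 alternatives, and without the 3 LiKM livers whose clock genes stood apart, with 1 LiKM liver on ACR remaining, 0 did. The calls are 38.9% of the 18 on the normal diet and 11.1% on ACR, all of them falls. Among all genes 21.8% and 9.79% passed, 8.61% and 4.24% lower in LiKM. Hnf4a itself did not pass on either diet.

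Targets of the FOXA factors and C/EBP alpha were split. Of 10, Gys2, the liver glycogen synthase, fell in LiKM on ACR to 249.6 ± 102 CPM, against 623 ± 5.31 CPM in LiK (log2 -1.32, edgeR adjusted p = 0.0153), while Igfbp1, an insulin-repressed secreted protein, rose (2.04, adjusted p = 0.0252). On the normal diet the thyroxine carrier Ttr (-0.58) and the tryptophan-degrading enzyme Tdo2 (-0.61) fell and Igfbp1 (1.76) rose. These calls are 20% of the 10 on ACR and 30% on the normal diet, against 9.79% and 21.8% of all genes. Gys2 passed in 18 of 22 alternatives on ACR, Igfbp1 in 14 on ACR and 16 on the normal diet, Ttr in 14 and Tdo2 in 11. With same-numbered LiKM mice as a block, Gys2 was -1.16 on ACR (edgeR adjusted p = 0.0521), and Igfbp1 was 1.44 on ACR and 1.30 on the normal diet (edgeR adjusted p = 0.148 and 0.156), so that these calls were lost. The calls of both genes on ACR were also lost without the 3 LiKM livers whose clock genes stood apart, a fit with 1 LiKM liver on ACR. Of 17 acute phase targets of C/EBP beta 1 rose on the normal diet, Lcn2, a secreted protein that binds siderophores (log2 2.59, edgeR adjusted p = 0.0401, 13 of 22 alternatives). On ACR 0 of these 17 passed by edgeR, 2 at an unadjusted p under 0.05 and 0 by DESeq2. The 1 call on the normal diet is 5.88% of the 17, against 21.8% of all genes.

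Of 27 listed targets of PXR and CAR, 24 had enough counts for a test, and Cyp2b10, the classical CAR target, was not among them. On the normal diet 3 rose in LiKM, the bile salt exporter Abcc3 (log2 1.02), the drug efflux pump Abcb1a (1.06) and Gadd45b (2.02), and 2 fell, the canalicular exporter Abcc2 (-0.65) and the carboxylesterase Ces2a (-1.24). These 5 are 20.8% of the 24, near the 21.8% of all genes that passed. Abcc3 and Ces2a passed in all 22 alternatives, Abcc2 in 21, and Abcb1a and Gadd45b, a stress-induced gene, in 16 each. With same-numbered LiKM mice as a block, Gadd45b was 1.87 and did not pass (edgeR adjusted p = 0.0800). On ACR Abcc2 fell (-0.82, edgeR adjusted p = 0.00893). Cyp3a44 rose there, with 8.85 ± 3.41 CPM in LiKM and 1.47 ± 0.245 CPM in LiK, though it has close relatives among the Cyp3a genes and its count is uncertain. Sult1e1, an oestrogen sulfotransferase, also rose, with 2.02 ± 1.98 CPM in LiKM and 0.0229 ± 0.0396 CPM in LiK, where counts were at or near 0, so that no fold change is given. The 3 calls on ACR are 12.5% of the 24, against 9.79% of all genes. Between 0 and 3 of the 24 rose and 1 or 2 fell on ACR when single libraries were left out.

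For ACR against the normal diet, 1 gene among these partners and targets passed. Over the 6 lists with 107 genes tested, 0 passed for ACR in LiKM by edgeR, 15 at an unadjusted p under 0.05 and 0 by DESeq2. In LiK 1 of the 107 passed, 0.935% against 0.195% of all genes, with 19 at an unadjusted p under 0.05 and 4 by DESeq2. It was Abcc3, which rose to 149 ± 26.9 CPM on ACR, against 65.3 ± 14.7 CPM on the normal diet (log2 1.18, edgeR adjusted p = 0.0223). The call held in 16 of 22 alternatives. It was lost with the identifier prefix, with the clock component, and without LiK ACR mouse 1 or 3 or LiK normal diet mouse 2 or 3. For the difference of the diet effects 0 of the 107 passed by edgeR, 12 unadjusted and 2 by DESeq2. Between the strains 6 of the 107 rose and 18 fell on the normal diet, 22.4% in all against 21.8% of all genes. By direction, with TMM scaling, 5.61% rose and 16.8% fell, against 13.2% and 8.61% of all genes. On ACR 4 rose and 12 fell, 14.95% in all against 9.79% of all genes. There 3.74% rose and 11.2% fell, against 5.55% and 4.24% of all genes. Of 20 markers of hepatocytes 7 fell on the normal diet (1 with library size alone). The 7 are 35% of the 20, while 8.61% of all genes passed lower and 21.8% either way. On ACR 0 of 20 passed by edgeR, 0 unadjusted and 0 by DESeq2.

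**Figure D5:**
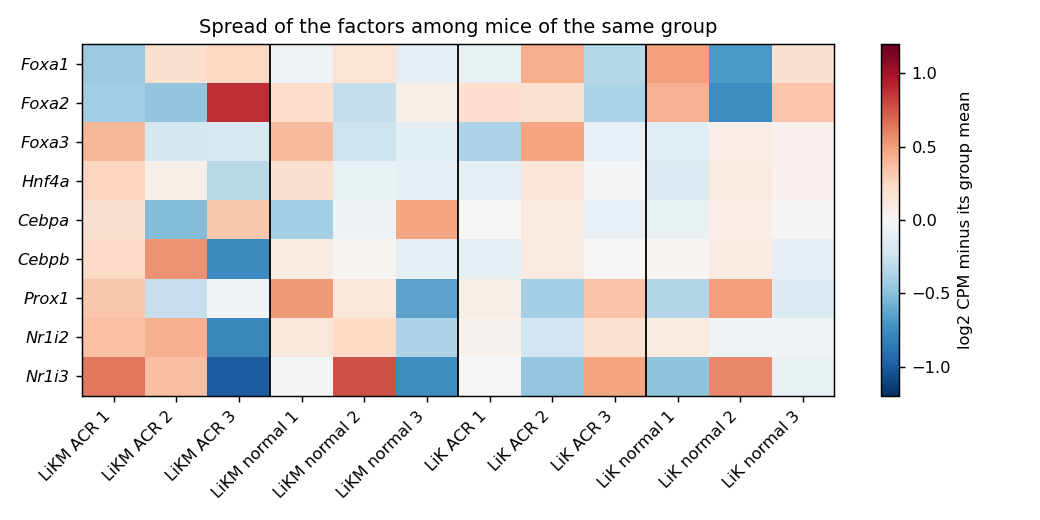
Deviation of each factor (rows) from its group mean on the log2 CPM scale in each of the 12 livers (columns, grouped from LiKM on ACR to LiK on the normal diet), in blue below and red above the mean. Hnf4a shows the palest row, with a pooled SD of 0.197, and Nr1i3 the strongest colours, with 0.679.

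Spread within groups was not shared evenly among mice. LiKM ACR mouse 3 had the lowest level of all 12 livers in 4 of the 9 factors, Hnf4a, Cebpb, Nr1i2 and Nr1i3, yet the highest Foxa2 and Cebpa of its group. LiK normal diet mouse 2 had the highest Hnf4a, Prox1 and Nr1i3 of all 12 livers. Both of these mice carry the identifier prefix MP, as does LiK normal diet mouse 3. The 9 factors did not go up and down together from liver to liver.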

How the data were processed

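RNA of the 12 livers was made into libraries with a stranded mRNA kit, per the labels' protocols, and counted per gene with featureCounts 2.0.0 against mm10, per the submitters' processing notes. No source used here names the aligner, the annotation or how strand was treated. The deposited values are expected counts per gene with no normalization: 18.9% of the values above 0 are not whole (tolerance 1e-09), and they were rounded before testing. All 12 columns matched a library by its labels. Of 24421 genes, 5382 had 0 counts in every library and 13880 passed edgeR's filter on low counts. Totals of 10124813 to 18647156 counts per library set the counting error, but with 3 mice a group the spread between mice limits precision more (common coefficient of biological variation 0.203).

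The test was edgeR 4.0.16's robust quasi-likelihood test (R 4.3.3) with TMM scaling over all 4 groups, with no covariate, and Benjamini-Hochberg adjustment over the 13880 genes. The threshold was an adjusted p of 0.05. Log2 CPM values carry a prior count of 2. Fold changes are log2 with edgeR's default prior count, and their SE is the fold change over the root of the F statistic. Strains were compared within each diet and diets within each strain, and the diet effects of the strains with each other. The script was tested on simulated data. No pair of libraries agreed within sampling noise.

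The 9 factors and all gene lists were chosen with earlier results of these data known. The text names all 9 factors, and of other lists the genes past the threshold, at most 4 of smallest p per comparison and direction, plus the 2 genes most like each factor that passed, among genes of at least 5 CPM. Alternatives were RLE scaling, library size alone, no filter, DESeq2 1.42.0, only the groups compared, blocks by replicate number, the prefix of the mouse identifiers as a covariate, leaving out each library, and leaving out 3 LiKM libraries whose clock genes stood apart. A clock component (first principal component of 15 clock genes) was added after seeing the data. Same-numbered mice deviated together between the LiKM groups (correlations of 0.366, 0.217 and 0.485), a pairing taken from the data, and not between any other pair of groups (lowest correlations of -0.101 to -0.00314).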

Additional observations from a re-analysis of the deposited data

How the results depend on the processing

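Of 981 values of the 9 factors under alternatives, 900 kept their direction and side of the threshold, 72 changed sign, 5 passed only there and 4 no longer passed. None of these 72 was a fold change past the threshold, while Esrra and Ncoa2, outside the 9, had passed and turned. The count of factors past the threshold was 0 for strain on ACR, against 1, with library size alone, with the clock component, and without LiK ACR mouse 1 or 2. On the normal diet it was 1, against 0, with the identifier prefix (Nr1i2) and without the 3 LiKM livers of deviating clock genes (Cebpa -0.70, edgeR adjusted p = 0.0072). Leaving out single libraries gave 0 to 1 for strain on either diet. For diet in LiK it was 1 with only the groups compared and without the 3 libraries (Nr1i2).

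Signs turned as follows (log2). With library size alone, strain on the normal diet gave Hnf4a 0.034, Foxa1 0.044, Foxa2 0.18, Cebpb 0.22, Esrra 0.021 and Ncoa2 0.022. On ACR it gave Foxa3 0.059. Diet in LiKM gave Hnf4a -0.11, Foxa3 -0.10 and Cebpb -0.037, and the difference of diet effects Hnf4a -0.043, Foxa1 -0.17 and Foxa2 -0.24. With only the groups compared, diet in LiKM gave Nr1i2 0.0017. With a replicate block over all groups, strain on ACR gave Nr1i2 -0.056 and Nr1i3 -0.083, and the difference of diet effects Foxa2 -0.13. With the replicate block within LiKM, strain on ACR gave Hnf4a 0.089 and Foxa3 0.30, and the difference Foxa2 -0.10. With the identifier prefix, diet gave Nr1i2 0.12 in LiKM and Cebpb -0.12 in LiK, and the difference Foxa2 -0.39 and Cebpb 0.38. Without the 3 libraries, which leaves 1 liver, mouse 1, in LiKM on ACR, strain on ACR gave Hnf4a 0.11 and Foxa3 0.30, diet in LiKM Cebpa 0.042 and Nr1i2 0.082, and the difference Foxa1 -0.41 and Foxa2 -0.49. With the clock component, strain on ACR gave Hnf4a 0.23, Foxa3 0.21 and Cebpb 0.17, diet in LiKM Nr1i2 0.30, diet in LiK Foxa1 0.0094 and Foxa2 0.15, and the difference Foxa1 -0.54, Foxa2 -1.04 and Cebpb 0.24.

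Leaving out single libraries, signs turned within these ranges for strain on ACR: Hnf4a -0.25 to 0.0301, Foxa2 -0.81 to 0.014, Foxa3 -0.29 to 0.22, Prox1 -0.11 to 0.24, Nr1i2 -0.19 to 0.30, Nr1i3 -0.27 to 0.40. The ranges were, for diet in LiKM, Hnf4a -0.089 to 0.22, Foxa1 -0.27 to 0.024, Foxa3 -0.17 to 0.30, Cebpb -0.15 to 0.45, Nr1i2 -0.22 to 0.29, Nr1i3 -0.15 to 0.64. The ranges were, for diet in LiK, Prox1 -0.36 to 0.11. The ranges were, for the difference of diet effects, Foxa1 -0.16 to 0.38, Foxa2 -0.57 to 0.32, Cebpb -0.44 to 0.13.

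No block changed a call for the 9 factors. With the block within LiKM, Cebpa for strain on ACR was -1.17 (edgeR adjusted p = 0.00523). This block is a pairing taken from the same data, so that p is no independent support. Among all genes it gave 9 calls for diet in LiKM against 0, 701 for diet in LiK against 27 and 260 for the difference of diet effects against 1. Counts of all genes also moved with library size alone (4831 against 3031 for strain on the normal diet), with DESeq2 (2072 against 1359 for strain on ACR, 71 against 0 for diet in LiKM, 390 against 27 in LiK) and without single libraries (312 to 1695 for strain on ACR). The causes were not tested.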

Other observations

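Within groups, some livers were low in Foxa1 and Foxa2 and high in Prox1 and Nr1i3. This order was noticed after the values were seen and is given with no test. Foxa3 did not share it. It was highest of its group in LiK normal diet mouse 2 (64.3 CPM) and LiKM ACR mouse 1 (59.6 CPM). In LiK ACR mouse 3 it lay between its group mates (43.4 CPM). LiK normal diet mouse 2 had the lowest Foxa1 (19.8 CPM) and Foxa2 (18.1 CPM) of its group and the highest Prox1 (111 CPM) and Nr1i3 (107 CPM). LiK ACR mouse 3 had the lowest Foxa1 (21.5 CPM) and Foxa2 (19.6 CPM) of its group and the highest Prox1 (88.0 CPM), Nr1i2 (70.8 CPM) and Nr1i3 (69.7 CPM). LiKM ACR mouse 1 had the lowest Foxa1 (16.9 CPM) and the highest Prox1 (92.2 CPM) and Nr1i3 (75.4 CPM) of its group, while its Foxa2 (15.2 CPM) lay just above that of mouse 2. LiKM on the normal diet had no such order: mouse 3 had the lowest Foxa1, Prox1 and Nr1i3 of that group, and mouse 1 the highest Foxa2 and Prox1.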
